A study of Homo sapiens with 4 samples.

Results

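TXLNA is the gene of α-taxilin, and the iCLIP peaks of MARF1 along its mRNA are described here. It was chosen by its peak calls: the members are the intervals of the deposited list of shared peaks with the gene symbol TXLNA, and every peak of either replicate that overlapped the TXLNA gene body. These were 5 of 282 shared intervals, 5 of 719 peaks of replicate 1 and 4 of 534 peaks of replicate 2. Across protein-coding genes, 1.94% had a peak in replicate 1, 1.23% in replicate 2 and 0.571% a shared interval in the gene body. Because the peak calls chose the gene, they are given as a description, without a test. The study mapped RNA bound by MARF1 with iCLIP, which crosslinks protein to RNA with UV light, precipitates the protein and sequences the RNA fragments that remain bound. HEK293 T-REx cells, a human embryonic kidney line with a tetracycline-regulated expression system, expressed F-MARF1ΔNYN, a FLAG-tagged MARF1 without its nuclease domain. Expression was induced with 100 ng/mL doxycycline for 12 h, cells were irradiated with 400 mJ/cm2 at 254 nm, and 20000000 cells were lysed for each of 2 replicates. The 2 control libraries came from irradiated cells labelled as the same HEK293 T-REx line, without a FLAG-tagged protein, and whether they received doxycycline is not stated in the sources used here.

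α-Taxilin binds members of the syntaxin family, the target-membrane SNAREs that drive vesicle fusion, and is known for a role in intracellular vesicle traffic. MARF1 is a ribonuclease with a NYN domain that cleaves RNA and with RRMs and tandem LOTUS domains, which are RNA-binding modules. Without the NYN domain, the protein keeps its RNA-binding modules but lacks the nuclease.

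On hg19, TXLNA (ENSG00000084652.16) spans chromosome 1, 32645276 to 32663886, on the plus strand. Both GENCODE transcripts with a 3′UTR share the same one, from 32660797 to 32663886, in exon 11, the last exon. Its 3090 nt are 16.6% of the gene body. The sites printed are those where the summits of both replicates, the positions of highest read pileup, fit in a window of 30 bases. They are read from hg19 on the plus strand, and capitals run from the summit of one replicate to that of the other. They show where both libraries placed the top of the same peak, at chr1:32661462-32661491, chr1:32662207-32662236 and chr1:32663516-32663545.
TXLNA interval 3: atgatGCTTCTCAGTAGCCTTATCAttcac
TXLNA interval 4: gttgcaaacttgCCAGGGtattagccagtg
TXLNA interval 5: tttaaccctcctCCACCCcatcacggtggc

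All peaks of both replicates lay wholly inside the 3′UTR, and no peak of either list touched the coding exons, the introns or the 5′UTR of TXLNA. Replicate 1 peaks covered 2451 nt, or 79.3% of the 3′UTR, and replicate 2 peaks covered 2548 nt, or 82.5%. The intervals shared by both replicates covered 2306 nt, or 74.6%. The bases covered in both replicates were 85.6% of the bases covered in either. Broad here names this extent of the calls, which also chose the gene.

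The coverage came mostly from a single long interval. Counted from the first base after the stop codon, interval 4 ran from 870 to 2592 (32661666 to 32663388) and held 1723 nt, or 55.8% of the 3′UTR. Interval 5 ran from 2654 to 3025 (32663450 to 32663821) and held 372 nt. The others were short and lay nearer the stop codon. Interval 1 covered 84 nt from 236 to 319 (32661032 to 32661115), interval 2 covered 32 nt from 429 to 460 (32661225 to 32661256) and interval 3 covered 95 nt from 606 to 700 (32661402 to 32661496). Divided into 3 equal parts of 1030 nt, the 3′UTR was covered over 36.1% of its part nearest the stop codon, 100% of its middle part and 87.8% of its last part.

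**Figure D1:**
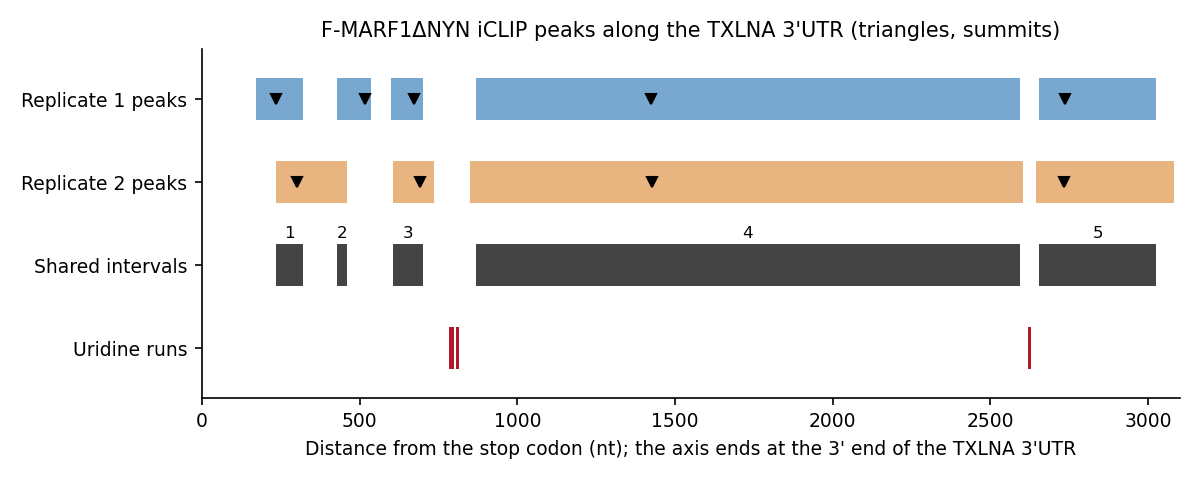
Peaks of each replicate, shared intervals and uridine runs of 10 or more along the TXLNA 3′UTR, in nt from the stop codon; triangles mark summits. Both replicates have a long peak in the middle, of 1723 and 1753 nt, of the 3′UTR with summits 5 nt apart.

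The replicates placed the tops of both longest peaks at almost the same base. In interval 4 the summits lay 5 nt apart, at 1423 and 1428 nt from the stop codon, and in interval 5 also 5 nt apart, at 2737 and 2732. In interval 3 they lay 19 nt apart. Across the 277 intervals of other genes the median distance was 49 nt, and 30 of them had summits within 5 nt. Among the 28 of these intervals with at least 300 nt, the median was 32 nt. The intervals nearest the stop codon matched less closely. Interval 1 had summits 66 nt apart, with that of replicate 1 just outside the interval. Interval 2 held no summit of either replicate: it is the overlap between the tail of the first replicate 2 peak, which also holds interval 1, and a replicate 1 peak with its summit at 518 nt. Intervals 3, 4 and 5 made up at least 50% of the peak in both replicates, whereas interval 1 was 57.1% of its replicate 1 peak and 37.3% of its replicate 2 peak, and interval 2 was 30.2% and 14.2%.

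Read numbers were solved from the deposited fold enrichments and p-values at each summit. Background is the local rate that the peak caller took from the control library or the genome, given here as control reads per 100 bp. The weights of reads in these values were themselves solved from the lists. A read of the F-MARF1ΔNYN library had a weight of 1 in replicate 1 and 0.951 in replicate 2. For a control read the weights were 0.803 and 1. Read numbers and control reads are given before weighting. At interval 4, 35 reads in replicate 1 stood over a background of 2 control reads, and 35 reads in replicate 2 over 1.1. At interval 5, the reads were 29 over 5 control reads in replicate 1 and 35 over 3 in replicate 2. Both replicates thus had their highest read numbers in the long central peak, where replicate 1 exceeded its other peaks and replicate 2 had as many at interval 5. Replicate 1 had 18 reads over 1.6 control reads at the peak that holds interval 1, and 15 over 3 at the peak that holds interval 2. The summits of these peaks, where the reads were solved, lay outside the intervals. At interval 3 it had 18 reads over 2.3. Replicate 2 had 15 reads over 0.7 at the peak that holds intervals 1 and 2, and 20 over 1.2 at interval 3.

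**Figure D2:**
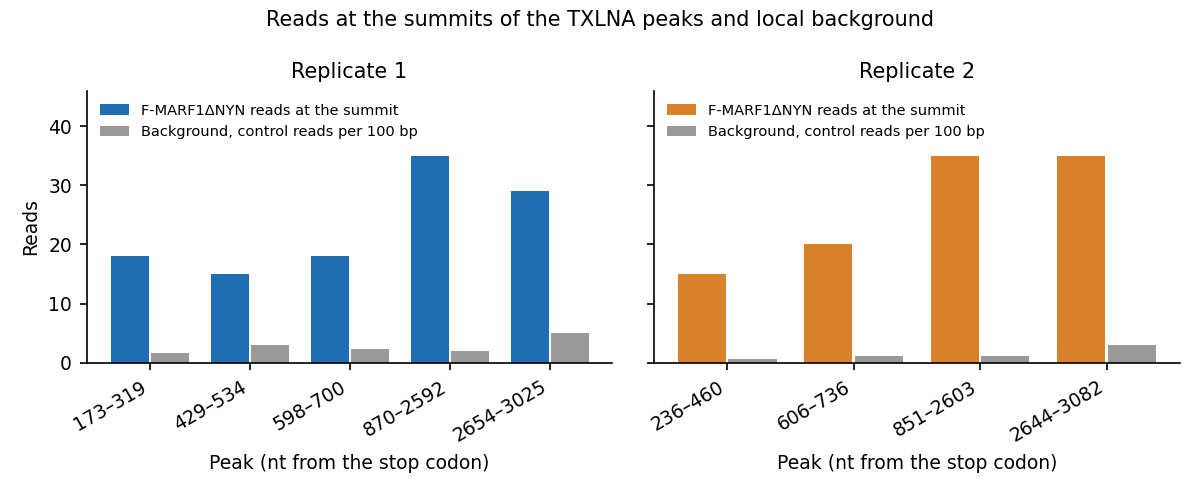
Reads at the summit (coloured) and local background as control reads per 100 bp (grey) for each TXLNA peak, named by its span in nt from the stop codon, in both replicates. Each bar is a value of a single library; reads stand above the background at every peak.

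The control signal at TXLNA was itself above that of most peaks. As control reads per kb, the background ranged from 16 to 50 over the TXLNA peaks of replicate 1, against a median of 3.9 over all peaks of that replicate. In replicate 2 it ranged from 7 to 30, against a median of 4. Interval 5 had the highest background of the gene in both replicates, ranking 7 of 719 and 21 of 534. The part of this background in the differences between peaks was not tested.

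The fold enrichment, from which read numbers were solved with the p-value, is the ratio of weighted reads to weighted background, with 1 added to each. The long peak had fold enrichments of 13.8 in replicate 1 and 16.3 in replicate 2, with q-values of 1.81e-28 and 3.16e-31 as the peak caller gave them. Those placed it 12 of 719 and 3 of 534 peaks by fold enrichment. The peak at interval 5 had 5.98 and 8.57, and the one at interval 3 had 6.67 and 9.10. At the stop-codon end, fold enrichments were 8.31 for the first and 4.69 for the second peak of replicate 1, and 8.98 for the single peak of replicate 2 there. Fold enrichment was higher in replicate 2 at each of the 5 intervals, of which intervals 1 and 2 lie in the same replicate 2 peak. Peaks other than the long one did not keep the same order in both replicates. The weakest peak, at interval 2 in replicate 1, had a q-value of 0.000305, or 3.52 as −log10. The lists reached down to 1.31 in replicate 1 and 1.36 in replicate 2 on that scale, so no TXLNA peak was near the q-value threshold of 0.05. Peaks beyond it are not in the lists.

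Among the 93 genes whose longest 3′UTR held part of a shared interval, TXLNA ranked 4 by covered length and 3 by share covered. KLHL15, which encodes a substrate adaptor of cullin ubiquitin ligases, had 3738 nt and 88.9%. NOTCH2, a cell-surface receptor, had 3172 nt and 84.5%. Over these genes the median covered length was 179 nt and, taken separately, the median covered share was 6.01%. In 4 genes over 50% was covered. TXLNA stood between LNPEP, a membrane aminopeptidase of recycling vesicles, with 2458 nt, and IGF2BP1, an mRNA-binding protein, with 2161 nt. Both had lower shares, 27.4% of a 3′UTR of 8980 nt and 32.2% of one of 6701 nt. The TXLNA 3′UTR was shorter than the median of 3619 nt. Its longest interval ranked 2 of all 282 by length, behind one of 3254 nt in NOTCH2.

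**Figure D3:**
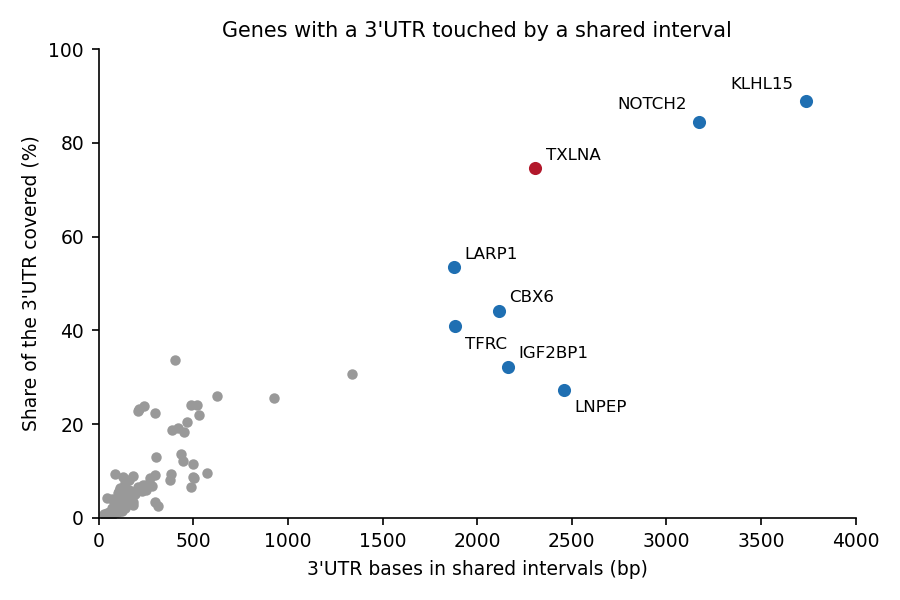
Bases of each gene's longest 3′UTR inside shared intervals (x, bp) against the share of that 3′UTR (y, %), for 93 genes. TXLNA (red), at 2306 nt and 74.6%, lies with KLHL15 and NOTCH2 above the other genes in share.

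By its strongest peak, taking the smaller fold enrichment of the replicates, TXLNA ranked 3 of 117 gene symbols with 13.8. Directly above was TFRC, the transferrin receptor, with 15.5, and directly below was KIAA0430, an older symbol of MARF1 itself, with 13.2. Of 1733 nt in KIAA0430 shared intervals, 125 nt lay in its longest 3′UTR. The cells also expressed F-MARF1ΔNYN, and the part of its mRNA in the KIAA0430 peaks was not tested. By replicate 2 alone TXLNA also ranked 3, and by replicate 1 alone it ranked 10, level with GLT8D2 at 13.8. Each replicate gives 1 value per gene, so neighbours in this order cannot be told apart by a measured error.

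**Figure D4:**
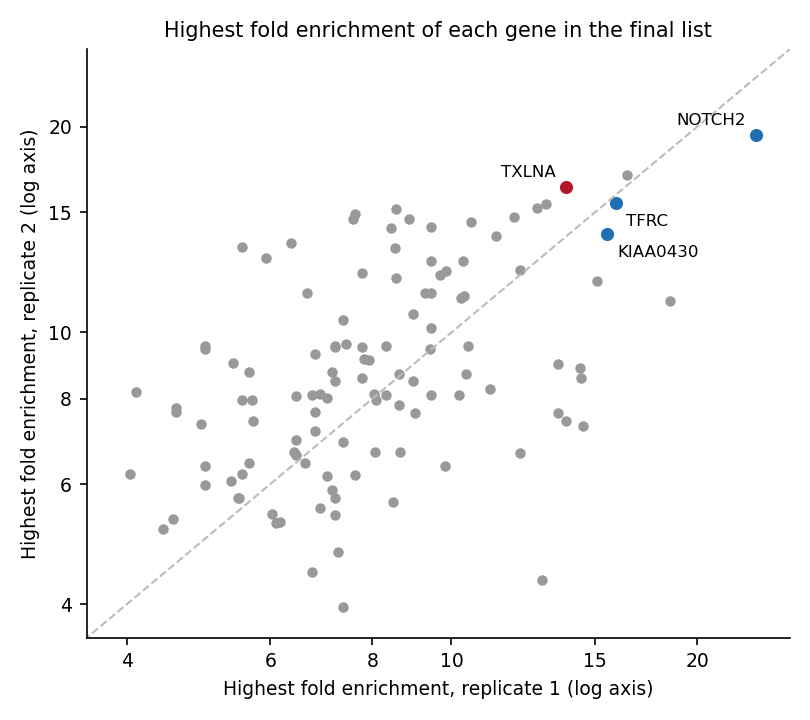
Highest fold enrichment of each of 117 gene symbols in replicate 1 (x) and replicate 2 (y), on log axes; the dashed line marks equal values. TXLNA (red) was at 13.8 and 16.3, near the upper end in both.

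The genes most like TXLNA were found by the Euclidean distance over 3 standardised measures: the log2 summed interval length, the log2 fold enrichment in the lower replicate and the share of the 3′UTR covered, over 93 genes. In order, these were NOTCH2 at a distance of 1.30, LARP1 at 1.60, TFRC at 2.05, KLHL15 at 2.16 and CBX6 at 2.42. NOTCH2 had its whole coverage in 1 interval. LARP1, an RNA-binding protein that regulates mRNAs of the translation machinery, had 4 intervals over 53.5% of its 3′UTR and a fold enrichment of 10.3 in the lower replicate. TFRC had 6 intervals over 40.9%, KLHL15 had 5 over 88.9%, and CBX6, a Polycomb chromobox protein, had 12 over 44.2%. KLHL15 was more widely covered than TXLNA, and its highest fold enrichments were 7.62 in replicate 1 and 14.9 in replicate 2, against 13.8 and 16.3. Its highest read numbers, 50 and 51, came from an interval of 1203 nt with fold enrichments of 6.20 and 8.25. Over all KLHL15 intervals the median background was 80 and 50 control reads per kb. The highest fold enrichment was also higher in replicate 2 than in replicate 1 in CBX6 (14.2 and 8.44) and LARP1 (11.2 and 10.3). It was lower in replicate 2 in NOTCH2 (19.4 and 23.6) and TFRC (15.5 and 15.9). NOTCH2 was the 1 gene of these 5 that stayed among the nearest by ranks and by either replicate alone.

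Bases inside the TXLNA intervals were richer in G and C than the rest of the 3′UTR, 52.7% against 46.3%, a difference of 6.43 percentage points. Uridine made up 28.1% inside and 32.5% outside. In the other 92 genes the median G and C content was 42.9% inside and 37.8% outside, and it was higher inside in 75 of them. The same direction was seen in NOTCH2 (40.8% inside and 32.5% outside), LARP1 (53.7% and 43.2%), KLHL15 (32.5% and 28.1%) and CBX6 (57.6% and 56.8%), and the opposite in TFRC (37.4% and 42.1%). In TXLNA the low G and C content lay in particular gaps. The 169 nt between intervals 3 and 4 had 34.3% G and C and 45.0% uridine, the 61 nt between intervals 4 and 5 had 36.1% and 47.5%, and the last 65 nt of the 3′UTR had 33.8% and 32.3%. The 235 nt next to the stop codon, with 53.2% G and C, were no poorer than the intervals. Windows of 100 nt centred on the summits were 0.615 percentage points above the rest of the 3′UTR. That rest also holds interval bases away from the summits, so this value is not a difference from the gaps and cannot be set against 6.43. Without uridine runs of 10 or more, the difference between intervals and gaps was 4.20.

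The long interval was bordered on both sides by runs of uridine, a feature looked for after the peaks were seen. The 3′UTR held 3 runs of 10 or more uridines, of 15, 10 and 11 nt, at 783 to 797, 805 to 814 and 2619 to 2629 nt from the stop codon. All 3 lay outside the peaks of both replicates, 73, 56 and 25 nt from the nearest interval. In the 3′UTRs of the other 92 genes, 1 of 72 such runs, in WEE1, touched a shared interval, while shared intervals covered 9.89% of all bases of those 3′UTRs. Counting peaks of either replicate, 5 of the 72 runs were touched, and such peaks covered 24.0% of the bases. TXLNA sequence from 746 to 840 nt, which includes the first pair of runs, matched transcripts of 280 other genes by blastn over at most 74 nt. None of the 5 intervals matched a transcript of another gene. The part of read mapping in the position of the gaps was not tested.

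**Figure D5:**
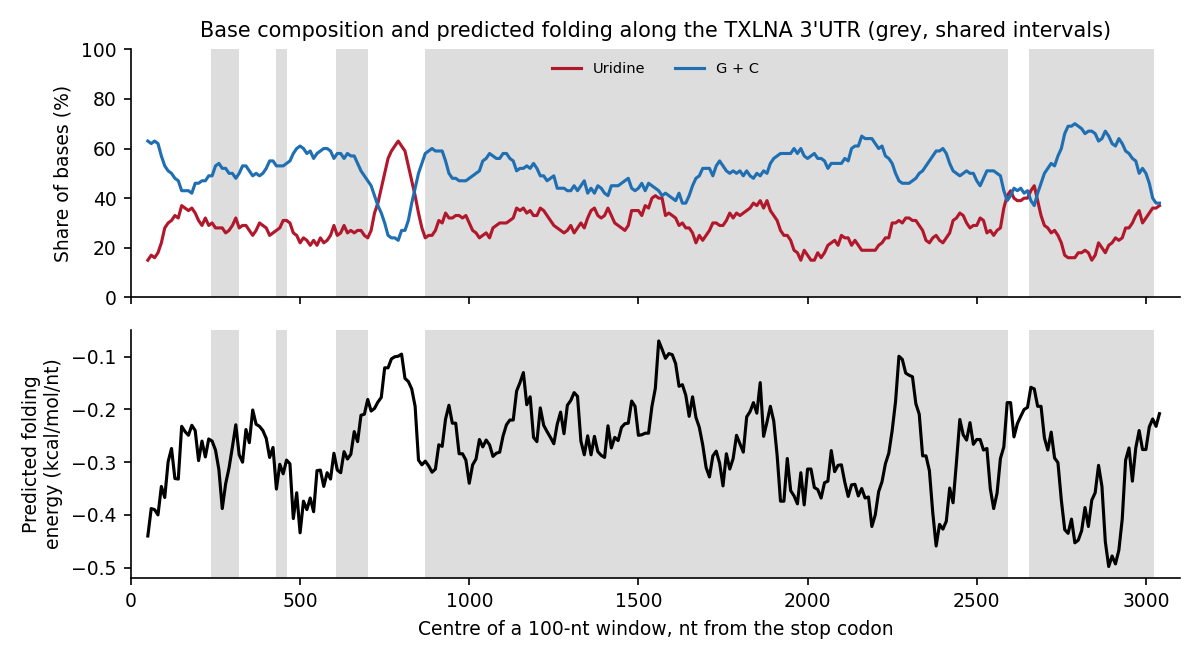
Share of uridine and of G and C (top, %) and predicted folding energy (bottom, kcal/mol per nt) in windows of 100 nt along the TXLNA 3′UTR, by distance from the stop codon; grey areas are shared intervals. Uridine is highest, at 63%, in the gap upstream of interval 4.

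The sign of the difference in predicted folding energy depended on the replicate in windows of 50 and 100 nt. In windows of 200 nt it was negative with either replicate. Windows of 100 nt with at least 90% of their bases inside intervals averaged −0.278 ± 0.0864 kcal/mol per nt (SD, n = 196 overlapping windows), and those with at most 50% inside averaged −0.266 ± 0.0850 (n = 73). The difference was −0.0118, and no error is given for it because the windows overlap. With replicate 1 peaks alone it was −0.0287, −0.0313 and −0.0389 in windows of 50, 100 and 200 nt, and with replicate 2 peaks alone 0.00272, 0.00381 and −0.00675. The sequence AAUAAA, the canonical polyadenylation signal, occurred once, 15 nt before the 3′ end and outside the intervals. Of the 93 genes, 71.0% had it in the last 50 nt of their longest 3′UTR. The last interval ended before the signal, and the last replicate 2 peak ended at 3082 nt, past it.

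The genes on either side of TXLNA, KPNA6 at 3112 bp upstream and CCDC28B at 2310 bp downstream, had no peak in either replicate. Downstream, the nearest peak of either replicate was in YRDC, a tRNA-modifying enzyme, 5605151 bp away in replicate 2.

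The machinery that α-taxilin works with was looked up in the same lists. Of 58 taxilins, syntaxins, other SNAREs, SNARE regulators and the taxilin partner NACA, 2 (3.45%) had a peak in replicate 1, against 1.94% of protein-coding genes, and 1 (1.72%) in replicate 2, against 1.23%. With so few genes called, nothing is read from these counts. Neither of the other taxilins, TXLNB and TXLNG, and none of the 16 syntaxins had a peak in either replicate, as was the case for most protein-coding genes. GOSR1, a SNARE of the Golgi, had 4 reads at a fold enrichment of 4.56 in replicate 1 and 5 reads at 5.33 in replicate 2, with a shared interval of 35 nt. NAPG, which encodes γ-SNAP, a cofactor that helps take SNARE complexes apart, had 6 reads at 6.12 in replicate 1 and no peak in replicate 2. These read numbers were well under the 15 to 35 of the TXLNA peaks.

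The lists hold no values per library, so a peak shows reads above the local control signal in a pair of libraries, and stretches between peaks had fewer reads than the caller needed, which does not show that they had none. The strand of the reads is not in the lists, and peaks were assigned to TXLNA by position.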

How the data were processed

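Reads were trimmed by the authors (Trimmomatic 0.32) and aligned to hg19 (STAR 2.3.0e). Reads with over 10 places, secondary alignments (SAMtools 1.9) and duplicates (Picard 2.10.7) were discarded. MACS2 2.1.1 (no model, extension size 100 bp, FDR 0.05) compared each F-MARF1ΔNYN replicate with the control of its number, and HOMER 4.10 annotated the intersection. The deposited lists give a fold enrichment (a ratio at the summit), its p-value and q-value as −log10, and a score, which repeats the q-value. The depth per library is not given there.

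The gene, gene lists and measures were chosen with earlier results of these data known. Genes named are TXLNA, listed taxilin and SNARE genes with a peak, the nearest gene with a peak on each side (the upstream one is not reported here), neighbours of TXLNA in both rank orders and the 5 genes most like it. GLT8D2, WEE1, KPNA6 and CCDC28B were named after their values were seen. Solving fold enrichment and p-value for reads and background gave whole reads for 719 of 719 and 534 of 534 peaks, at read weights of 1 and 0.951, where a whole number of reads matched the −log10 p-value within 0.002. The method was tested on simulated data. Annotation was GENCODE 44 on GRCh37, with no peak past a chromosome's end. Of 117 symbols, 105 matched, 3 of them by RefSeq synonyms, and 102 had a 3′UTR. ViennaRNA 2.7.2 predicted folding energies in steps of 10 nt, and blastn 2.17.0 sought copies at an E-value of 1e-05. Scripts ran under Python 3.11.15 with pandas 2.3.3, numpy 2.4.6, matplotlib 3.10.9 and scipy 1.17.1. Stricter q-values, a fold enrichment of at least 4, other overlaps, windows and transcripts, and each replicate alone were tried as alternatives.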

Additional observations from a re-analysis of the deposited data

How the results depend on the processing

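Every TXLNA peak lay past the stricter q-values and fold enrichment tried, and both transcripts share a 3′UTR, so those settings could not change a count or the covered share. Requiring an overlap of 50% of both peaks left 3 TXLNA intervals. The covered share was 79.3 to 82.5% with a replicate left out and 87.2% over peaks of either. By longest single interval TXLNA ranked 2, and by covered length 6 with either replicate left out. The fold enrichment rank was 3 to 10 with a replicate left out. The G and C difference was 4.20 percentage points without uridine runs (chosen after seeing the data) and 4.91 to 7.80 with a replicate left out. Around summits it was 0.615, against a rest of the 3′UTR that also holds interval bases. The folding difference was −0.0313 to 0.00381 with a replicate left out, also chosen after seeing the data. The cause of these shifts was not tested. Of the 5 genes most like TXLNA, 3 were found again by ranks and 3 with either replicate left out, with NOTCH2 as the 1 gene in common. A read weight fixed at 1 solved no TXLNA peak of replicate 2 and gave no value there. No paired analysis was possible because the lists were called within numbered pairs and hold no value per library. Depth per library is unknown.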
